A study of Salmo salar with 18 samples.

Results

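Gill of Atlantic salmon that had eaten the LAN4 diet was compared at 1 h post-stress with gill of pre-stress fish on the same diet. The 6 libraries of this comparison, 3 from LAN4 1 h post-stress fish and 3 from LAN4 pre-stress fish, were taken by their labels from the 18 libraries of the series. LAN4 is a hydrolyzed product of the yeast *Debaryomyces hansenii* that was added to a commercial-like feed, and the control diet (CD) is that feed without it. All fish had eaten their diet for 7 weeks and then for 1 week of acclimatization in the tanks of the stress challenge. The 1 h fish had been netted out of the water for 1 min, put back and sampled 1 h later. The pre-stress fish were sampled without this exposure. All fish came from the same genetic line, were fresh-water juveniles, and were sedated before sampling. Each diet had as many of these tanks as sampling times, and the labels do not say from which tank each sequenced fish came. Fish of a group may therefore have shared a tank, and the p-values measure the spread between these fish only.

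Cells answer a sudden change in their surroundings by transcribing immediate early genes, which need no new protein to be switched on. Many of them encode transcription factors of the AP-1 (Fos and Jun), EGR and KLF families. They are followed by feedback regulators, such as phosphatases that switch off MAP kinases and proteins that speed up the decay of short-lived mRNA. In fish, netting and air exposure can also raise cortisol. The paper measured plasma cortisol and reports no significant rise after stress in its LAN4 group. The gill is the organ that takes up oxygen and moves ions between blood and water. Genes that respond to glucocorticoids, to hypoxia or to ion load were therefore examined as well.

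Between 15499047 and 16807628 fragments were counted in a LAN4 1 h library, against between 10128626 and 16080235 in a LAN4 pre-stress library. The lane is written in the header of each count file. It was lane 1 for the 1 h libraries and lane 3 for the pre-stress libraries, so lane and sampling time cannot be told apart. In a principal component analysis the first component took 30.6% of the variance, and the 1 h libraries lay between 12.7 and 49.5 on it and the pre-stress libraries between -39.0 and -31.6. The files carry no gene names. A RefSeq name other than a LOC number could be paired by position with 8965 of the 69389 genes, so most genes of any family stayed unnamed here. In bulk tissue, fewer cells of a type and less RNA per cell cannot be told apart.

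The response was mostly a rise. Of 31811 genes tested, 216 were higher at 1 h (0.679%) and 33 were lower (0.104%) at a Benjamini-Hochberg adjusted p under 0.05 in edgeR's quasi-likelihood test. Among the genes called higher, 157 differed by at least 2-fold, 59 by at least 4-fold and 24 by at least 8-fold, with a median log2 fold change of 1.37. Among the genes called lower, 14 differed by at least 2-fold and the median log2 fold change was -0.91. For all 249 genes every 1 h fish lay on one side of every pre-stress fish, which was the case for 19.9% of all genes tested. The count of lower genes depended on single fish: it was 152 without LAN4 1 h replicate 1, 8 without LAN4 1 h replicate 3, 9 without LAN4 pre-stress replicate 1 and 17 without LAN4 pre-stress replicate 2. The count of higher genes was 132 without LAN4 pre-stress replicate 1, while 108 genes, all of them higher, were called in this test and in each of the 14 alternatives that refitted all genes.

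**Figure D1:**
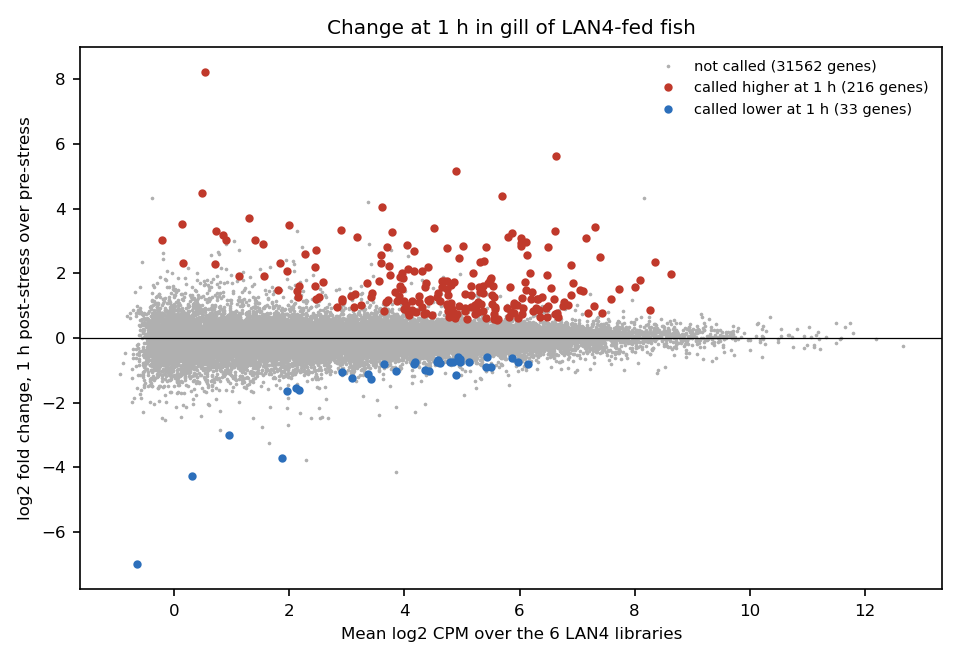
Each point is 1 of 31811 genes, with its mean log2 CPM over the 6 LAN4 libraries on the x axis and its log2 fold change (LAN4 1 h post-stress over LAN4 pre-stress) on the y axis. Red points mark the 216 genes called higher and blue points the 33 called lower. The fitted values of the 5 called genes with at most 3 counts in every fish of a group depend on the model's prior count.

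Genes called higher were short and genes called lower were long. The median span from the first to the last exon was 6855 bases for the genes called higher and 30072 bases for those called lower, beside 17962 bases over all genes tested. The summed exon lengths had medians of 2924, 5832 and 3705 bases in the same order. These are descriptions of the called genes, without a test. Of the 148 higher genes that could be paired with a RefSeq gene, 147 were protein coding, and 38 of the 216 had a symbol.

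The gene with the largest rise above a mean log2 CPM of 1 was LOC106571028 (ENSSSAG00000046644, chromosome 15, from 19617124 to 19619486), which has no symbol. It was measured at 169, 193 and 216 CPM (counts-per-million, with library sizes scaled by TMM) in the LAN4 1 h fish, against 3.93, 4.07 and 3.81 CPM in the LAN4 pre-stress fish. This was a 48.7-fold difference, with a log2 fold change of 5.61 (SE, the standard error, 0.15, adjusted p = 3.41e-07 by edgeR). The groups were far apart, and the pre-stress fish were almost equal.

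Of the transcription factors on the immediate early list, 20 were tested, and 11 rose, 1 fell and 8 did not pass the threshold. Over all genes tested, 0.679% were called higher and 0.104% lower. The median log2 fold change of the 20 genes was 1.02, beside 0.00 over all genes tested, and in 16 of them every 1 h fish was above every pre-stress fish, as in 10.1% of all genes tested. The list held 33 symbols, of which 18 were matched, and the genes fos and egr1 were not among those tested under a symbol. Over the alternatives between 8 and 15 members were called. This list and those below were chosen with earlier results of these data known. Their counts and medians beside all genes are therefore descriptions and no test of enrichment.

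The largest rise on this list was that of egr3, a zinc finger factor of the EGR family (ENSSSAG00000045986, chromosome 20, from 24871016 to 24876458). It was measured at 20.9, 24.0 and 22.5 CPM in LAN4 1 h fish, against 1.01, 1.36 and 1.76 CPM in LAN4 pre-stress fish. Its log2 fold change was 4.05 (SE 0.20, adjusted p = 8.08e-06 by edgeR), a 16.6-fold difference between a gene close to the lower end of the measured range before stress and one well above it after. Only in the model that also held the 6 CD libraries was it not called (adjusted p = 0.0587).

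The pair ier2 (ENSSSAG00000058660, chromosome 12) and ier2a (ENSSSAG00000115652, chromosome 6), which share the name of an immediate early nuclear protein, rose together. The 1 h fish had between 87.6 and 107 CPM of ier2 and the pre-stress fish between 10.8 and 12.0 CPM, a log2 fold change of 3.13 (SE 0.12, adjusted p = 2.38e-06 by edgeR). For ier2a the values were 56.3, 76.9 and 75.7 CPM in 1 h fish and 16, 11.3 and 12.7 CPM in pre-stress fish, a log2 fold change of 2.38 (SE 0.17, adjusted p = 0.000119). In both genes LAN4 1 h replicate 1 was the lowest of the 1 h fish, and it was still more than 3 times as high as any pre-stress fish.

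AP-1 genes rose as well. The Jun family member junb (ENSSSAG00000097267, chromosome 2, from 63628229 to 63630898) had 151, 169 and 153 CPM in LAN4 1 h fish, against 22.5, 26.6 and 18.2 CPM in LAN4 pre-stress fish, and a log2 fold change of 2.81 (SE 0.15, adjusted p = 1.74e-05 by edgeR). The other Jun gene with a symbol, jun, rose less, to 17.8 ± 2.75 CPM at 1 h against 7.99 ± 0.973 CPM pre-stress (SD, n = 3 each), a log2 fold change of 1.16 (adjusted p = 0.0102 by edgeR). Its call was lost without LAN4 1 h replicate 3 or either of LAN4 pre-stress replicates 1 and 2. The Fos family member fosl2 rose with a log2 fold change of 1.24 and atf3, a partner of Jun proteins, with 1.36 (adjusted p = 0.000513 and 0.00618 by edgeR).

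Both genes named after KLF2, a factor known in mammals to respond to blood flow in endothelium, were higher. klf2a (ENSSSAG00000006501, chromosome 10) was measured at 212, 174 and 199 CPM in 1 h fish, against 68.2, 58.4 and 81.3 CPM in pre-stress fish. The gene with the synonym klf2 (LOC100286404, ENSSSAG00000049310, chromosome 3) had 25.1, 15.6 and 23.6 CPM in 1 h fish, against 3.86, 3.74 and 6.45 CPM in pre-stress fish. Their log2 fold changes were 1.49 and 2.22 (adjusted p = 0.00101 and 0.00405 by edgeR), and like all called genes neither overlapped between the groups.

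Smaller rises on the list were those of mych, a Myc family gene of fishes (log2 fold change 0.78, adjusted p = 0.0253 by edgeR), and maff, a small Maf factor (0.56, adjusted p = 0.0284), and both calls were lost in 5 or more of the alternatives. ier3, csrnp1b, nr4a3 and klf4 (LOC100217346) had log2 fold changes of 0.87, 1.24, 0.88 and 0.50 and did not pass the threshold (adjusted p = 0.0531, 0.0581, 0.16 and 0.186 by edgeR). In all 4 every 1 h fish was above every pre-stress fish, as in 10.1% of all genes tested. The member that fell was ier5l, a paralog of the immediate early gene ier5. It had 24.4, 24.1 and 28.9 CPM at 1 h, against 48.3, 40 and 42.1 CPM pre-stress (log2 fold change -0.75, adjusted p = 0.022).

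**Figure D2:**
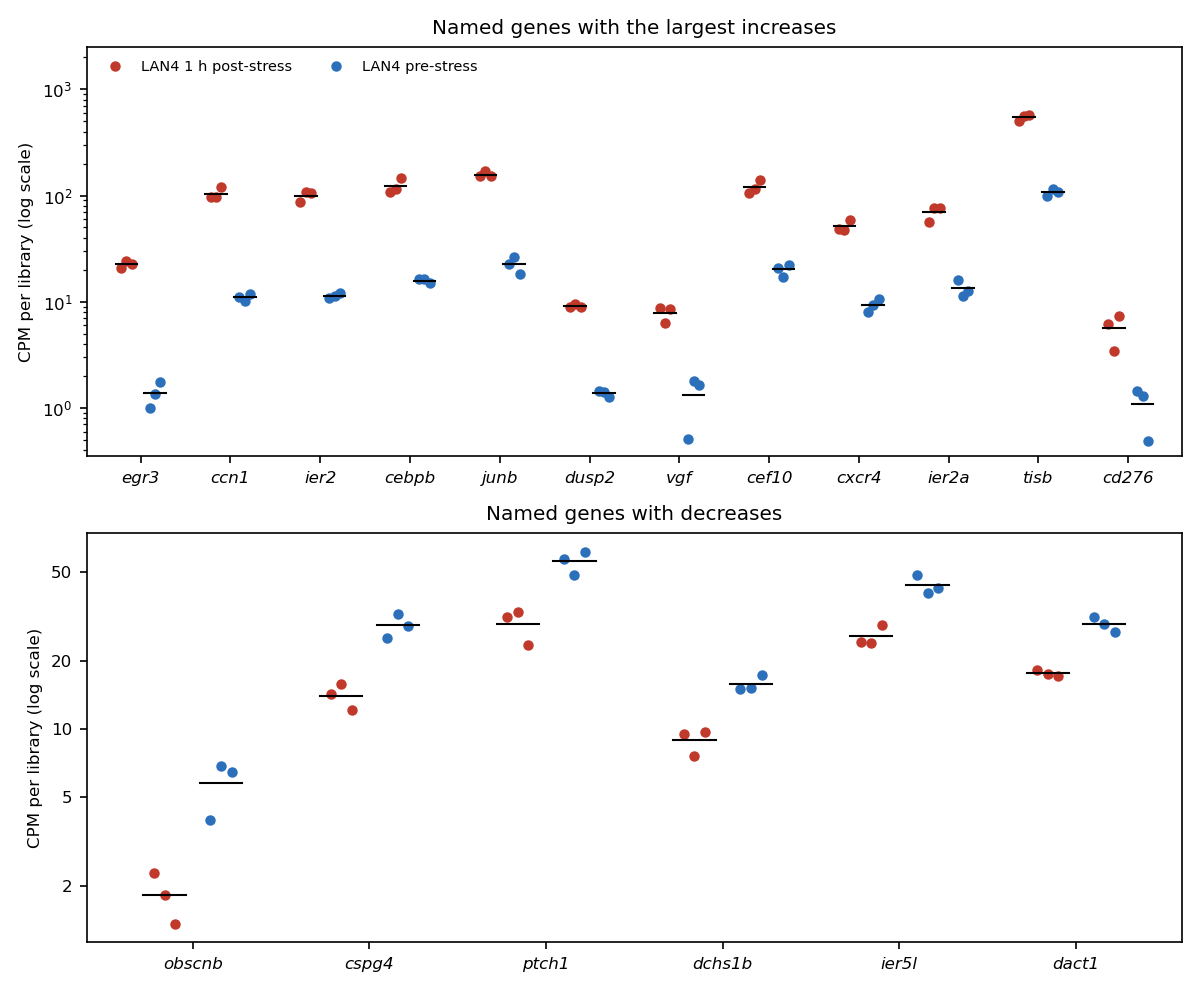
Points are CPM of single libraries on a log axis, with LAN4 1 h post-stress in red at the left and LAN4 pre-stress in blue at the right of each gene, and bars are means of 3 fish. The upper panel shows the 12 named genes with the largest increases and the lower panel the 6 named genes with decreases. No overlap between the groups was a condition for naming these genes.

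Feedback regulators of early signalling formed the second group. Of 16 tested, 5 rose, beside 0.679% of all genes tested, and 11 did not pass. The median log2 fold change was 0.50, and in 10 of the 16 every 1 h fish was above every pre-stress fish, beside 10.1% of all genes. Among them was tisb (ENSSSAG00000005611, chromosome 9, from 117250019 to 117252550), named after TIS11B, a protein that binds AU-rich elements and destabilizes mRNA. It had 499, 557 and 575 CPM in LAN4 1 h fish, against 98.1, 115 and 108 CPM in LAN4 pre-stress fish, a log2 fold change of 2.35 (SE 0.14, adjusted p = 2.75e-05 by edgeR).

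The phosphatase gene dusp2 (ENSSSAG00000082156, chromosome 20, from 32172019 to 32175401), whose product inactivates MAP kinases, had 8.87, 9.60 and 8.89 CPM at 1 h and 1.46, 1.42 and 1.27 CPM pre-stress. Its log2 fold change was 2.71 (SE 0.19, adjusted p = 0.000119 by edgeR). Another phosphatase of the family, dusp6, which acts on ERK, rose much less, to between 116 and 132 CPM at 1 h against between 77.7 and 79.8 CPM pre-stress (log2 fold change 0.65, adjusted p = 0.02). Its call was lost in 6 of the 14 alternatives.

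btg2, an antiproliferative gene that also promotes mRNA deadenylation, was measured at 281, 311 and 350 CPM in 1 h fish, against 118, 104 and 108 CPM in pre-stress fish (log2 fold change 1.51, SE 0.13, adjusted p = 0.000479 by edgeR). The kinase gene pim3 had a log2 fold change of 1.05 (adjusted p = 0.00546). Of the 11 members that did not pass, nfkbiab, an inhibitor of NF-kappaB, came closest (0.59, adjusted p = 0.0689), followed by plk3 (0.87, adjusted p = 0.118). errfi, named as a feedback inhibitor of ERBB receptors, was higher at 71.9, 74.3 and 66.3 CPM in 1 h fish, against 14.5, 22.5 and 22.1 CPM in pre-stress fish (1.85, adjusted p = 0.000513 by edgeR). Under this spelling it was matched to no list, although the feedback list held errfi1.

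Among 16 vascular and matricellular genes, 3 rose, beside 0.679% of all genes tested, and the median of the list was -0.05. An unadjusted p under 0.05 was reached by 10 of the 16, beside 13.5% of all genes. In 5 every 1 h fish was above every pre-stress fish and in 5 every 1 h fish was below, beside 10.1% and 9.79% of all genes. CCN proteins are secreted into the matrix and bind integrins. ccn1 (ENSSSAG00000051615, chromosome 10, from 42959730 to 42962984) was measured at 96.7, 97.5 and 119 CPM in LAN4 1 h fish, against 11.1, 10.1 and 11.8 CPM in LAN4 pre-stress fish, a log2 fold change of 3.25 (SE 0.13, adjusted p = 2.4e-06 by edgeR). cef10 (ENSSSAG00000008740, chromosome 23), which carries the name of the chicken counterpart of CCN1 and was not on the list, had 106, 114 and 139 CPM at 1 h and 21.0, 17.2 and 22.2 CPM pre-stress, a log2 fold change of 2.57 (SE 0.15, adjusted p = 2.63e-05). The CCN family member ctgf was higher at 215, 172 and 213 CPM in 1 h fish, against 68.4, 69.9 and 82.1 CPM in pre-stress fish (1.45, adjusted p = 0.000759).

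All 3 CCN genes thus had fish far apart between the groups and close within them. The matrix protease gene adamts1 rose less, to 61.5 CPM on average against 33.3 CPM (log2 fold change 0.89, SE 0.10, adjusted p = 0.0024 by edgeR). The growth factor gene areg, which encodes an EGF receptor ligand, had a log2 fold change of 1.38 and missed the threshold (adjusted p = 0.0615). The vascular members thbs2a, pecam1a, hey1 and edn1 had log2 fold changes of -0.34, -0.32, -0.40 and -0.78, none of them called.

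Of the genes for surface and secreted proteins, cxcr4, the receptor of the chemokine CXCL12 (ENSSSAG00000063084, chromosome 25, from 10694050 to 10696018), was measured at 48.9, 47.0 and 59.0 CPM at 1 h and 8.05, 9.42 and 10.6 CPM pre-stress. Its log2 fold change was 2.47 (SE 0.14, adjusted p = 2.75e-05 by edgeR). vgf, the precursor of neuroendocrine peptides, had 8.76, 6.29 and 8.50 CPM in 1 h fish, against 0.507, 1.81 and 1.66 CPM in pre-stress fish (2.59, SE 0.38, adjusted p = 0.0167). cd276, a member of the B7 family of immune regulators, had 6.11, 3.44 and 7.33 CPM at 1 h and 1.46, 1.29 and 0.489 CPM pre-stress (2.32, SE 0.40, adjusted p = 0.0324). The call of cd276 was lost in 7 of the 14 alternatives. That of vgf was lost in 2 of them, without LAN4 1 h replicate 3 and with the replicate number as a block.

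Of 32 symbols on the glucocorticoid list only 11 were matched. Of 10 glucocorticoid-responsive genes tested, 1 rose, beside 0.679% of all genes, and the median log2 fold change was 0.16. The gene that rose was cebpb, a bZIP factor of inflammation and metabolism (ENSSSAG00000089329, chromosome 13, from 36475522 to 36477970). It had 108, 114 and 146 CPM in LAN4 1 h fish, against 16.2, 16.3 and 15.0 CPM in LAN4 pre-stress fish, a log2 fold change of 2.95 (SE 0.14, adjusted p = 7.43e-06 by edgeR). The gene cebpb also answers to other signals. The other matched members had log2 fold changes between -0.22 and 0.65, among them gadd45ga and txnip (0.65 and 0.53, adjusted p = 0.121 and 0.152), per1b (0.21) and pdk4 (0.11). The list also held slc38a2, which was not among the 10 because the gene is spelled s38a2 here. That gene rose, and its values are given below.

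In the integrated stress and unfolded protein response list, 1 of 20 genes rose, beside 0.679% of all genes tested, and the median was 0.17. chac1, an enzyme that degrades glutathione, had 106, 110 and 140 CPM in 1 h fish, against 45.3, 47.8 and 53.8 CPM in pre-stress fish (log2 fold change 1.28, SE 0.14, adjusted p = 0.0017 by edgeR). xbp1 and trib1 followed at 0.56 and 0.78 (adjusted p = 0.078 and 0.186), while asns, atf4 and atf6 had 0.15, 0.19 and -0.01. s38a2, named after an amino acid transporter, rose to 149 ± 7.20 CPM at 1 h against 68.5 ± 3.44 CPM pre-stress (SD, n = 3 each). Its log2 fold change was 1.12 (adjusted p = 0.000801 by edgeR). Under this spelling it was matched to none of the lists, although the glucocorticoid list held slc38a2.

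Of 17 gill genes for ion and ammonia transport, 1 rose, beside 0.679% of all genes tested, and the median was 0.09. slc12a3, a sodium-chloride cotransporter, had 9.52, 11.6 and 9.41 CPM in 1 h fish, against 3.36, 4.52 and 5.47 CPM in pre-stress fish (log2 fold change 1.20, SE 0.21, adjusted p = 0.0313 by edgeR). The groups did not overlap, as in all called genes, but the call was lost in 5 of the 14 alternatives. The sodium pump subunit gene atp1b1a and the water channel gene aqp3b had log2 fold changes of 0.42 and 1.30 (adjusted p = 0.168 and 0.149), while the cotransporter gene slc12a2 had -0.10 and the ammonia channel gene rhbg 0.06.

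Other named genes that rose were chosen after their values were seen. nocta, a nocturnin gene, had a log2 fold change of 1.60, ccng2, a cyclin G gene, 1.10, fam43a 0.98 and midn, whose mammalian product takes immediate early proteins to the proteasome, 0.96 (adjusted p between 0.002 and 0.0218 by edgeR). The interferon gamma receptor gene ifngr1b and the heparan sulfate proteoglycan gene sdc4 each had 0.83, ets2 of the ETS factor family 0.66 and id3, an inhibitor of bHLH factors, 0.61 (adjusted p between 0.02 and 0.0412). Of these 8, nocta, fam43a and midn were among the 108 genes called in every alternative.

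In 3 of the genes called higher, every pre-stress fish had at most 3 counts, so that only a lower bound of the change can be given. ENSSSAG00000073488 on chromosome 13 had 71, 22 and 29 counts in 1 h fish and 0 in each pre-stress fish, at least 11.5-fold higher. ENSSSAG00000001057 on chromosome 2 had 34, 38 and 39 counts in 1 h fish, against 3, 0 and 1, and ENSSSAG00000047478 on chromosome 5 had 24, 17 and 19 counts, against 2 in each pre-stress fish. They were at least 10.8-fold and 5.76-fold higher (bounds for the group means, against 3 counts in a library). None of them has a RefSeq name, and they are named because the count is small.

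The lists for hypoxia and heat shock held 0 called genes, where 0.783% of all genes tested were called. Only 19 of 35 hypoxia symbols and 15 of 32 heat shock symbols were matched. Of 18 targets of the hypoxia-inducible factor tested, 10 had a log2 fold change above 0, the median was 0.01 and 1 had an unadjusted p under 0.05, where 13.5% of all genes did. ndrg1a came closest, with 22.9, 26.7 and 33.4 CPM at 1 h and 20.1, 18.9 and 18.4 CPM pre-stress (0.53, SE 0.15, adjusted p = 0.177 by edgeR). vegfab, hk2 and hif1ab had 0.07, -0.10 and -0.14 with standard errors of 0.11, 0.10 and 0.12. None of the 14 alternatives called a member.

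Of 13 heat shock and chaperone genes, 1 had an unadjusted p under 0.05, beside 13.5% of all genes tested, and the median was -0.07. The inducible hspa1b was measured at 1.06, 0.713 and 0.779 CPM at 1 h and 1.52, 1.48 and 1.37 CPM pre-stress (log2 fold change -0.77, adjusted p = 0.352 by edgeR). The chaperone genes hspa8 and hsp90ab1 had 0.00 and 0.07 (standard errors 0.18 and 0.16). Their groups overlapped.

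The immune lists held no called gene either, beside 0.783% of all genes tested. Only 17 of 37 inflammatory symbols and 16 of 31 interferon symbols were matched. Of 15 inflammatory genes 0 were called, with il1r2, a decoy receptor of interleukin-1, and ptgs2b, a cyclooxygenase, closest at log2 fold changes of 0.72 and 0.87 (adjusted p = 0.0579 and 0.0616 by edgeR). In both, every 1 h fish was above every pre-stress fish, as in 10.1% of all genes tested. Both were called by DESeq2 and without the filter on low counts. Of the 15 inflammatory genes, 4 reached an unadjusted p under 0.05, beside 13.5% of all genes tested. edgeR and DESeq2 both called 0 of the 13 interferon-stimulated genes, of which 0 reached an unadjusted p under 0.05, and their median was -0.10.

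Circadian clock genes (15 tested), oxidative stress and glutathione genes (18), cell cycle genes (20) and glycolysis and energy genes (23) each held 0 called genes by edgeR. Of all genes tested, 0.783% were called. The medians were 0.10, 0.14, -0.09 and -0.03. An unadjusted p under 0.05 was reached by 3, 3, 2 and 6 genes, beside 13.5% of all genes tested. In 8 of the 23 glycolysis and energy genes every 1 h fish was below every pre-stress fish, beside 9.79% of all genes. DESeq2 and the other alternatives called 0 members of the oxidative stress and cell cycle lists, at most 1 of the clock list and at most 4 of the glycolysis list. In the clock list dbpb, an output factor of the clock, was highest, at 107, 111 and 92.1 CPM in 1 h fish, against 59.9, 50.7 and 75.8 CPM in pre-stress fish (0.74, adjusted p = 0.0785). In 16 of the 18 oxidative stress genes the log2 fold change was above 0, among them gsto1 and gstr with 0.52 and 0.49, beside 49.6% of all genes tested. The CD median of this list was -0.26, and the difference between the diets was not tested for the list.

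**Figure D3:**
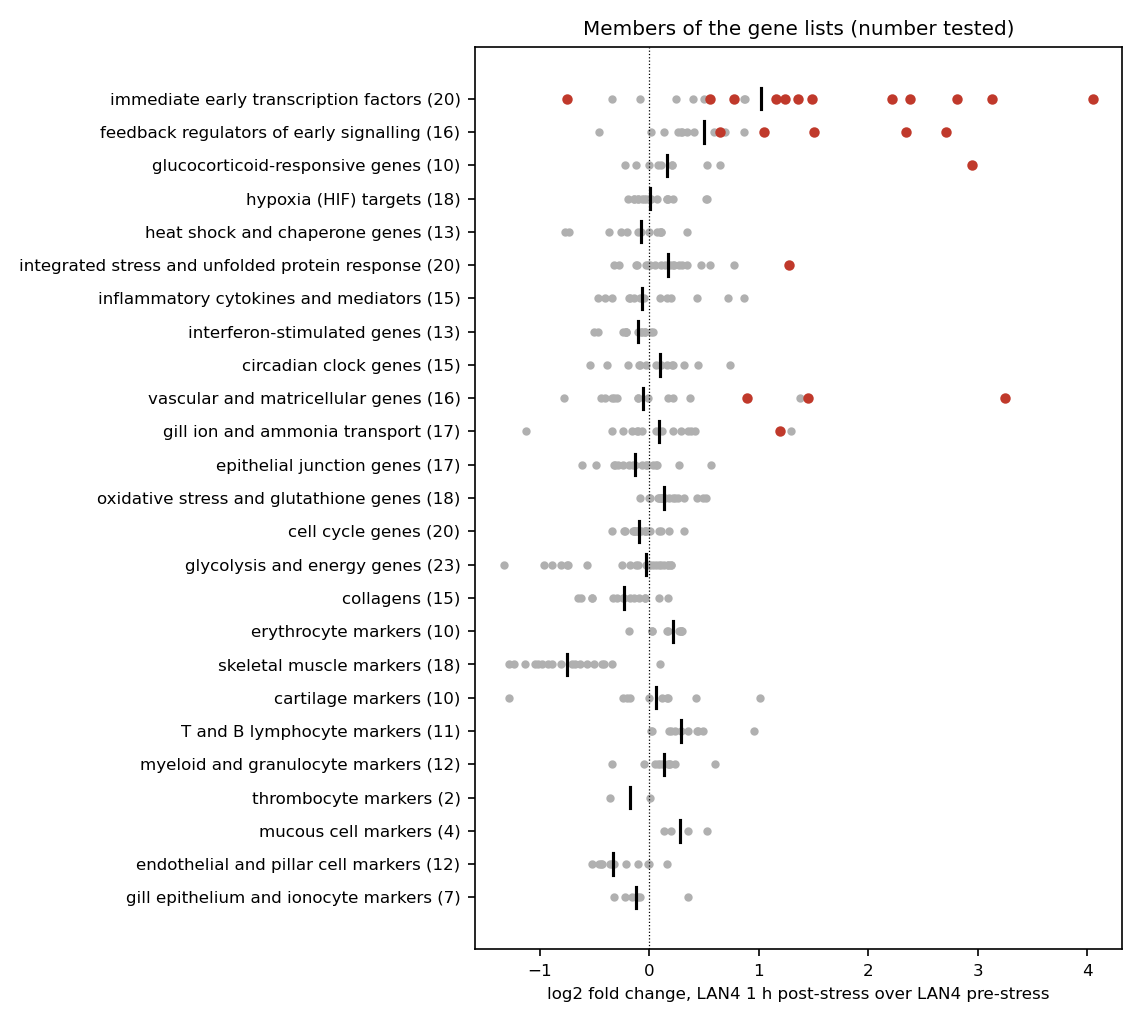
Each point is a member of a gene list, with its log2 fold change (LAN4 1 h post-stress over LAN4 pre-stress) on the x axis, red where called at an adjusted p under 0.05 and grey where not, and vertical bars are medians of the tested members. Called genes lie mostly in the upper 2 lists, with medians of 1.02 and 0.50, and the skeletal muscle markers lie farthest to the left with a median of -0.75.

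Only 6 of the 33 genes called lower had a symbol. cspg4, a proteoglycan gene of pericytes and progenitor cells (ENSSSAG00000043647, chromosome 10, from 69931253 to 70050637), had 14.3, 15.8 and 12.1 CPM in LAN4 1 h fish, against 25.4, 32.4 and 28.7 CPM in LAN4 pre-stress fish, a log2 fold change of -1.03 (SE 0.14, adjusted p = 0.00834 by edgeR). ptch1, the receptor and target gene of Hedgehog signalling (ENSSSAG00000061743, chromosome 24, from 8160491 to 8244515), had 31.5, 33.0 and 23.7 CPM at 1 h and 56.8, 48.3 and 61.4 CPM pre-stress (-0.91, SE 0.15, adjusted p = 0.0218). dact1, an antagonist of Wnt signalling (ENSSSAG00000039982, chromosome 1), had 18.2, 17.6 and 17.1 CPM at 1 h and 31.4, 29.3 and 27.1 CPM pre-stress (-0.73, SE 0.11, adjusted p = 0.013).

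In all 3 genes the groups did not overlap, as in all called genes. dchs1b, a large protocadherin gene of planar cell polarity, fell to 9.52, 7.59 and 9.73 CPM at 1 h, against 15.1, 15.2 and 17.4 CPM pre-stress (-0.82, adjusted p = 0.0398 by edgeR), and lost its call in 8 of the 14 alternatives. The calls of dact1 and ier5l were each lost in 5 of them, that of ptch1 in 4 and that of cspg4 in 1. The largest fall above a mean log2 CPM of 1 was that of ENSSSAG00000089016 on an unplaced scaffold, with 0.940, 0.324 and 0.195 CPM at 1 h and 9.0, 7.23 and 3.52 CPM pre-stress (-3.72, SE 0.55, adjusted p = 0.0207 by edgeR). Its call was lost in 5 of the 13 alternatives in which it was tested. In CD this gene had 6, 79 and 2 counts in 1 h fish and 99, 76 and 1 in pre-stress fish, so it varied widely between fish of the same group.

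In 2 of the genes called lower, every 1 h fish had at most 3 counts. ENSSSAG00000086215 on an unplaced scaffold had 0 counts in each LAN4 1 h fish, against 13, 19 and 12 in LAN4 pre-stress fish, at least 5.71-fold lower. ENSSSAG00000107075 on chromosome 14 had 1, 1 and 3 counts, against 59, 12 and 20, at least 11.5-fold lower. Both bounds are for the group means and not for single fish.

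obscnb, which encodes obscurin, a giant protein of the muscle sarcomere (ENSSSAG00000074961, chromosome 3, from 33406168 to 33508270), had 2.29, 1.82 and 1.36 CPM in LAN4 1 h fish, against 3.93, 6.84 and 6.45 CPM in LAN4 pre-stress fish (log2 fold change -1.64, SE 0.30, adjusted p = 0.0379 by edgeR). Its call was lost in 7 of the 14 alternatives. Of 18 skeletal muscle markers tested, 17 had a log2 fold change below 0, with a median of -0.75, and in 12 every 1 h fish was below every pre-stress fish, where 9.79% of all genes were. edgeR called 0 of the 18, beside 0.783% of all genes tested, although 11 reached an unadjusted p under 0.05, beside 13.5%. Members called were 6 by DESeq2 and 6 without LAN4 1 h replicate 1. atp2a1, the calcium pump of fast muscle, had 131, 51.1 and 61.4 CPM at 1 h and 153, 149 and 202 CPM pre-stress (-1.04, adjusted p = 0.32), and neb, which encodes nebulin, 34.9 and 76.4 CPM (-1.13, adjusted p = 0.158). LAN4 1 h replicate 1 was the highest of the 1 h fish in atp2a1, neb and the summed level. That sum over the 18 genes lay between 789 and 1080 CPM at 1 h and between 1110 and 1320 CPM pre-stress, and the parvalbumin gene pvalb2 was at 0 in all 6 libraries. In CD the median log2 fold change of the muscle list was -0.71, and the difference between the diets was not tested for the list. The part of muscle in the fall of obscnb was not tested.

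Markers of the other cell types had 0 called genes each, beside 0.783% of all genes tested. Coverage of these lists was partial, and lowest for thrombocytes and mucous cells (3 of 14 and 4 of 16 symbols matched). The medians were 0.22 for 10 erythrocyte genes, 0.06 for 10 cartilage genes, 0.29 for 11 lymphocyte genes, 0.14 for 12 myeloid genes, 0.28 for 4 mucous cell genes, -0.33 for 12 endothelial and pillar cell genes, -0.12 for 7 genes of gill epithelium and ionocytes and -0.17 for 2 thrombocyte genes. Numbers of genes with an unadjusted p under 0.05 were 1, 1, 4, 1, 1, 4, 1 and 0 in the same order, beside 13.5% of all genes tested. The CD medians, again in this order, were -0.26, 0.59, 0.08, 0.04, 0.07, 0.14, 0.05 and 0.07. Differences between the diets were not tested for these lists. The alternatives, DESeq2 among them, called 0 members of each of these lists. All 11 genes of the lymphocyte list were above 0, beside 49.6% of all genes tested, among them blnk and CD4 (LOC100169853) with 0.49 and 0.36. This list also took in gata1, through a synonym of gata3. As markers of gill ionocytes, foxi3a was measured at between 32.8 and 72.7 CPM and slc12a2 at between 339 and 725 CPM. Of the endothelial genes, mmrn2a, stab1 and stab2 had -0.44, -0.43 and -0.52 (adjusted p = 0.278, 0.192 and 0.33 by edgeR). The summed level of the endothelial list lay between 806 and 1000 CPM at 1 h and between 912 and 1320 CPM pre-stress.

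The same contrast in CD, 3 fish at 1 h against 3 pre-stress fish on the same lanes, shows how much of the response was shared between the diets. In a model of the 12 libraries, 344 of 33024 genes were higher (1.04%) and 186 lower (0.563%) at 1 h in CD. Of the 216 genes called higher in LAN4, 209 were also above 0 in CD, 141 were called higher there, and their median log2 fold change was 1.37 in LAN4 and 1.06 in CD. Of the 33 genes called lower in LAN4, 24 were below 0 in CD, 5 were called lower there, and the medians were -0.91 in LAN4 and -0.29 in CD. Over all genes tested, 57.6% had the same direction. As the genes were chosen by their LAN4 values, the smaller CD medians are a description and no test of a difference.

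The 5 genes called lower in both diets were dact1, ier5l, LOC106585026 on chromosome 24, LOC106608505 on chromosome 7 and ENSSSAG00000107075, the last 3 named after their values were seen. LOC106585026 had log2 fold changes of -1.0 in LAN4 and -1.10 in CD, and LOC106608505 of -0.63 and -1.08. Among the named genes that rose, ccn1 changed by 3.25 in LAN4 and 2.91 in CD, ier2 by 3.13 and 2.71, junb by 2.81 and 2.54, cef10 by 2.57 and 2.49 and tisb by 2.35 and 1.90. All 5 were called in CD too (adjusted p between 9.7e-07 and 0.000682 by edgeR), and for none of them was the difference between diets called (adjusted p between 0.471 and 0.911).

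Some genes called in LAN4 by the fit of the LAN4 libraries alone were not called in CD by the fit of the 12 libraries. In that 12-library fit egr3 and cspg4 were not called in LAN4 either (adjusted p = 0.0587 and 0.123 by edgeR). The genes dusp2, vgf and mych kept their LAN4 call in it. For egr3 the CD change was 2.53 (adjusted p = 0.105 by edgeR) and the difference between diets 1.52 (adjusted p = 0.617). For dusp2 these were 1.54 (adjusted p = 0.105) and 1.16 (adjusted p = 0.537), for vgf 1.36 (adjusted p = 0.174) and 1.23 (adjusted p = 0.548), and for cspg4 -0.07 (adjusted p = 0.921) and -0.97 (adjusted p = 0.459). mych had 0.16 in CD (adjusted p = 0.481) and a difference of 0.61 (adjusted p = 0.332). None of these differences was called, so the diets were not shown to differ in them. In CD pre-stress fish egr3 had 173, 25 and 18 counts and dusp2 had 95, 23 and 19. CD pre-stress replicate 1 thus raised the CD pre-stress mean of both genes, and no fit left it out.

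**Figure D4:**
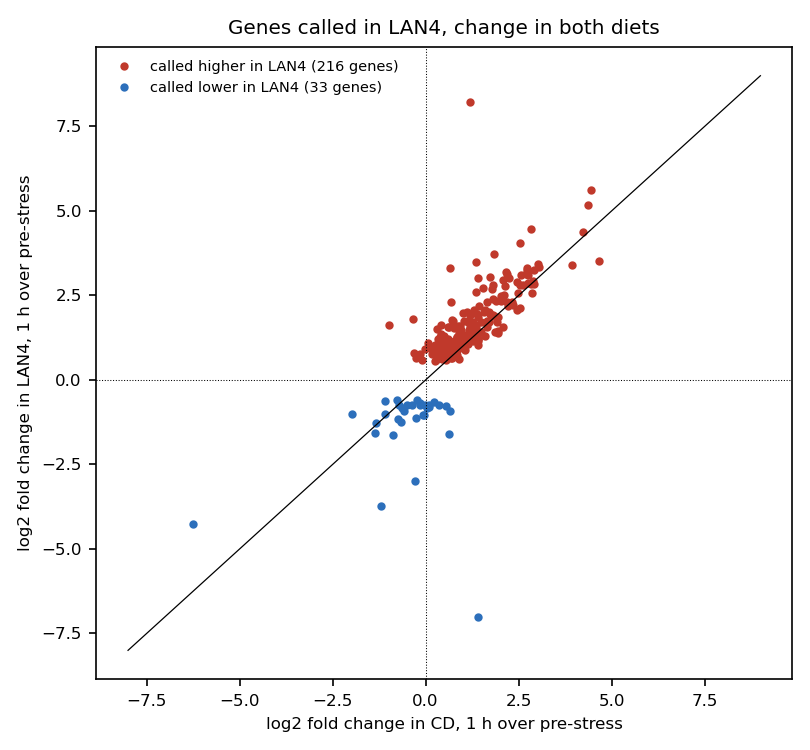
Each point is a gene called in LAN4, with its log2 fold change at 1 h over pre-stress in CD on the x axis and in LAN4 on the y axis, and the solid line marks equal change. Of 216 genes called higher in LAN4 (red), 209 lie to the right of 0, and of 33 called lower (blue), 24 lie to the left. Fitted values of genes with at most 3 counts in every fish of a group depend on the prior count.

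The change from pre-stress to 1 h differed between the diets in 6 genes of 33024 (0.0182%), 5 of them with a higher change in LAN4 (0.0151%) and 1 with a lower one (0.00303%), while 10.4% had an unadjusted p under 0.05. For 4 of the 6, the LAN4 change itself was small and not called. abcb3 (ENSSSAG00000042201, a transporter gene of antigen processing, also known as tap2), LOC123730988 and LOC123730958 lie within 1 stretch of chromosome 27 between 10533315 and 10564750, and their LAN4 log2 fold changes were -0.21, 0.13 and 0.05 (adjusted p = 0.589, 0.722 and 0.926 by edgeR). The CD fish at 1 h had 0 counts of abcb3 and of LOC123730958, and the CD pre-stress fish between 273 and 1218. LOC123724424 on chromosome 10 had a LAN4 change of 0.36 (adjusted p = 0.642) and 0 counts in each CD pre-stress fish.

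In the other 2 genes the LAN4 fish of both times did not overlap. LOC106601074 (ENSSSAG00000103747, chromosome 3, from 64127956 to 64129475) had 357, 366 and 554 CPM in LAN4 1 h fish, against 134, 127 and 106 CPM in LAN4 pre-stress fish (scaled over the 12 libraries), a log2 fold change of 1.80 (SE 0.19, adjusted p = 0.00166 by edgeR). In CD it was measured at between 321 and 467 CPM at 1 h and between 394 and 551 CPM pre-stress, a change of -0.34 (adjusted p = 0.393), and the difference between diets was 2.14 (SE 0.28, adjusted p = 0.0226). The LAN4 pre-stress fish were thus below the fish of the other 3 groups. It is the only gene called both in LAN4 and in the difference. ENSSSAG00000119753 on chromosome 13 had 18, 17 and 24 counts in LAN4 1 h fish, against 7, 7 and 3 in LAN4 pre-stress fish (1.59, adjusted p = 0.147), while CD fell by 1.87 on the log2 scale (adjusted p = 0.0132).

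**Figure D5:**
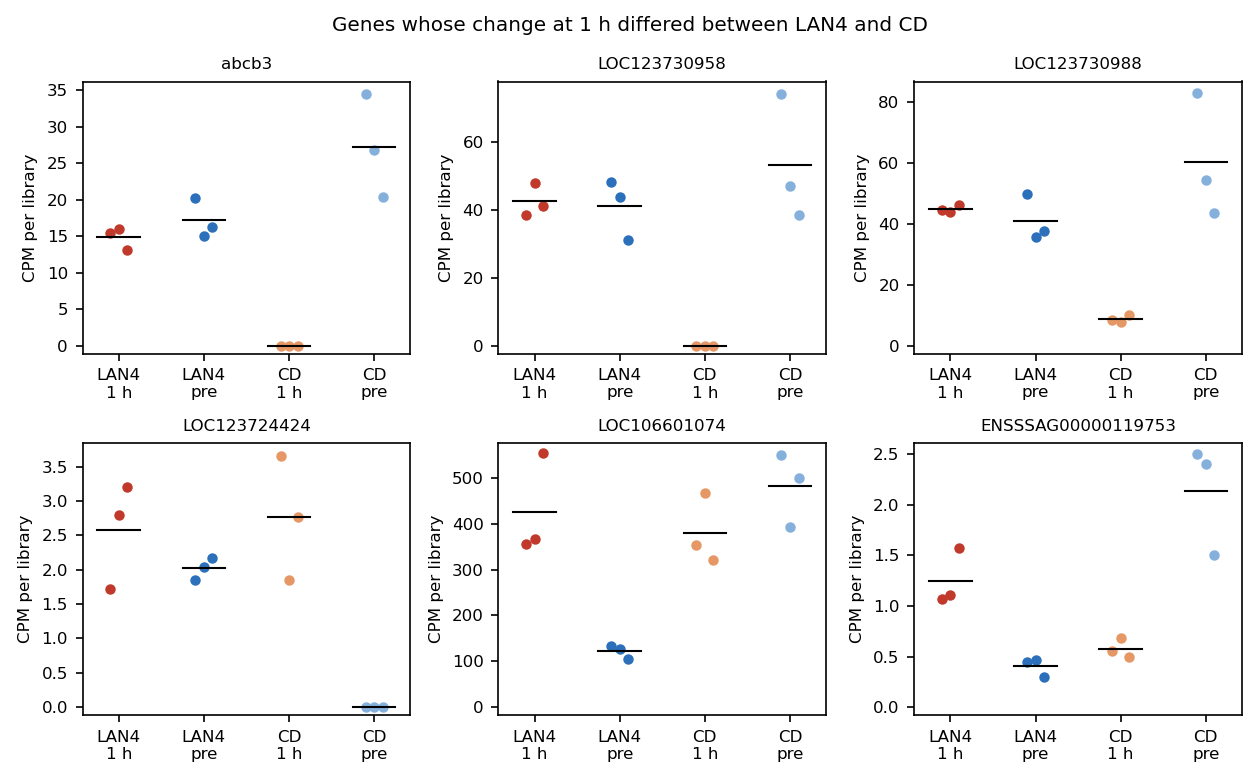
Points are CPM of single libraries and bars are means of 3 fish, with LAN4 1 h, LAN4 pre-stress, CD 1 h and CD pre-stress along the x axis, for the 6 genes whose change differed between the diets. LOC106601074 stands between 106 and 134 CPM in the LAN4 pre-stress fish and between 321 and 554 CPM in the 9 other fish.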

How the data were processed

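Gill RNA of 3 fish for each diet and time was made into stranded mRNA libraries and read from both ends. Alignment was done by the authors in the nf-core RNA-seq workflow, and they deposited raw counts of fragments per gene from featureCounts (Subread 1.5.1 per the file headers), on assembly Ssal_v3.1, counting neither multi-mapped nor overlapping fragments, so genes with a near-identical copy are undercounted and uncertain. The 12 LAN4 and CD libraries of the pre-stress and 1 h groups were used, and the 6 h libraries were left out of every fit. The aligner version was not given in the sources used here.

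The 6 LAN4 libraries were fitted with edgeR 4.0.16 in R 4.3.3 (genes kept by filterByExpr, TMM factors, robust quasi-likelihood fit), and p-values were adjusted by Benjamini-Hochberg over all genes tested. The change in CD and its difference from LAN4 came from a 12-library fit. Simulated counts for the 31811 genes of the LAN4 comparison held 200 changed genes. In them 48% of 2-fold and 87% of 4-fold changes were recovered. Calls fell on 135 changed genes, and 16 calls were false. For the 33024 genes of the difference between diets, again with 200 changed, 19% and 71% were recovered. Calls fell on 90 changed genes, and 1 call was false.

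Gene names came from RefSeq by position, without comparing strands. Of 69389 genes 34343 were paired with a RefSeq gene. Named were called genes (adjusted p under 0.05) whose log2 CPM averaged 1 or more, with no overlap between groups and a symbol (the 12 largest changes in each direction), up to 4 called members of each list (or, with none called, those with the lowest p), and all genes called in the difference between diets. Other named genes were chosen after their values were seen. The gene lists and this comparison were chosen with earlier results of these data known. Lists were matched by symbol and synonym only, and gata1 also entered the lymphocyte list through a synonym of gata3. No promoter or motif was examined.

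Replicate numbers did not pair the fish. Replicate libraries of a group differed beyond sampling noise. Alternatives were DESeq2 1.42.0, limma-voom (limma 3.58.1), other size factors and filters, and the 12-library fit. The others were the replicate number as a block, a 2-fold limit and leaving out each LAN4 library. No CD library was left out.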

Additional observations from a re-analysis of the deposited data

Results flagged for a closer look

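In 6 genes the change at 1 h differed between LAN4 and CD by edgeR's test of the difference itself, 3 fish per group. Pre-stress and 1 h fish were different fish, so no change within a fish was measured. For abcb3 the LAN4 change exceeded the CD change by 11.52 on the log2 scale (adjusted p = 1e-05), with 259, 246 and 200 counts in LAN4 1 h fish, 316, 229 and 165 in LAN4 pre-stress fish, 0 in each CD 1 h fish and 566, 458 and 273 in CD pre-stress fish. For LOC123730958 the difference was 12.74 (adjusted p = 0.000484), with 646, 736 and 629 counts in LAN4 1 h fish, 758, 664 and 315 in LAN4 pre-stress fish, 0 in each CD 1 h fish and 1218, 803 and 515 in CD pre-stress fish. The neighbouring LOC123730988 had a difference of 2.93 (adjusted p = 0.0042), with 120, 159 and 161 counts in CD 1 h fish and 1360, 926 and 580 in CD pre-stress fish. These 3 genes were called in all 10 alternatives. None of these left out a CD library, so they do not show how far the calls depend on single CD fish.

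LOC123724424 had a difference of -8.06 (adjusted p = 0.0125), with 29, 43 and 49 counts in LAN4 1 h fish, 29, 31 and 22 in LAN4 pre-stress fish, 53, 38 and 45 in CD 1 h fish and 0 in each CD pre-stress fish. Where a group was at 0 in every fish, the fitted difference depends on the prior count. LOC106601074 had a difference of 2.14 (adjusted p = 0.0226) and ENSSSAG00000119753 of 3.46 (adjusted p = 0.0478), and the second had 8, 14 and 8 counts in CD 1 h fish and 41, 41 and 20 in CD pre-stress fish. The call of LOC123724424 was lost in 2 of the 10 alternatives (largest adjusted p = 0.0991), that of LOC106601074 in 4 (0.15) and that of ENSSSAG00000119753 in 6 (0.188).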

How the results depend on the processing

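Against 216 genes called higher and 33 lower in LAN4, DESeq2 called 444 and 246, and no filter on low counts gave 347 and 157. A 2-fold limit left 157 and 14. Leaving out 1 library gave between 132 and 251 higher and between 8 and 152 lower genes. With the replicate number as a block, 147 were higher and 11 lower, and same-numbered fish did not deviate together (correlations -0.156, -0.0247 and -0.225). RLE factors, library size only, limma-voom, a stricter filter and the 12-library fit gave between 208 and 256 higher and between 31 and 49 lower. All 249 genes kept their direction wherever they were tested, and DESeq2 called all 249. For the difference between diets, DESeq2 called 66 higher and 67 lower, no filter 6 and 2, the block 3 and 0, and leaving out 1 LAN4 library between 3 and 11 higher and between 0 and 3 lower. The cause of these shifts was not tested. With 3 fish per group, 48% of 2-fold changes were recovered in the LAN4 simulation, so an uncalled gene is not shown to be unchanged. Lane and sampling time cannot be told apart.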

Other observations

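Matrix and junction genes held no gene called by edgeR in LAN4, beside 0.783% of all genes tested. Of 15 collagen genes 13 had a log2 fold change at or below 0, with a median of -0.23, 4 had an unadjusted p under 0.05 (13.5% of all genes tested did), and in 5 every 1 h fish was below every pre-stress fish (9.79% of all genes). Largest was the change of col5a2a, a chain of fibrillar collagen V (-0.65, adjusted p = 0.161 by edgeR), followed by col6a1 of the microfibrillar collagen VI (-0.62, adjusted p = 0.355). In CD the median of the same list was 0.27, and the difference between the diets was not tested for the list. Of 17 epithelial junction genes the median was -0.13 and 2 had an unadjusted p under 0.05. cldn5a, a claudin of tight junctions, came closest to the threshold (-0.61, adjusted p = 0.0821). Among the alternatives, DESeq2 included, at most 1 member of each list was called.

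The largest uncalled change at a mean log2 CPM of 1 or more, picked after the values were seen, was that of ENSSSAG00000103944 on chromosome 3. It had 731, 857 and 43.1 CPM in LAN4 1 h fish, against 0.0634, 0 and 83.5 CPM in LAN4 pre-stress fish (log2 fold change 4.33, adjusted p = 0.547 by edgeR). LAN4 1 h replicate 3 and LAN4 pre-stress replicate 3 were close to each other, and the groups overlapped.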
